A study of Mus musculus with 2 samples.

Results

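The 37 genes described here encode the glucose transporters, the enzymes of glycolysis with their isoforms, the lactate and pyruvate steps, the oxygen-sensing factor HIF-1α with 2 of its prolyl hydroxylases, a set of hypoxia-induced genes and the cytokine MIF. They were listed by symbol, and all 37 were found among the 31017 symbols of the count tables. Their raw UMI counts were summed by cell class in 2 single-cell RNA-sequencing libraries of mouse periodontal tissue, 1 from untreated control mice and 1 from mice with ligature-induced periodontitis (LIP). In this model a thread tied around a molar gathers bacteria and causes gum inflammation and bone loss. Both groups were wild-type C57BL/6 mice of 8 weeks, each library pooled the tissue of 5 mice, and the LIP tissue was taken 7 days after ligation. With 1 library per condition there was no replicate and no test between conditions. Intervals below are exact 95% intervals of counting error only, and a gene was called different when its summed level differed at least 2-fold.

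Glycolysis splits glucose into pyruvate in the cytosol and yields ATP without oxygen, and lactate dehydrogenase then turns pyruvate into lactate, which leaves the cell through monocarboxylate transporters. HIF-1α is made constantly and is destroyed when oxygen is present, because prolyl hydroxylases mark it for degradation. In low oxygen, or in immune cells activated by bacterial products, it persists and raises transcription of most glycolytic genes and of genes such as Bnip3, Egln3 and Vegfa. Neutrophils, activated macrophages and activated T cells are known for their reliance on glycolysis.

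Barcodes with 200 to 7500 genes, at most 60000 UMIs and at most 10% mitochondrial UMIs were kept, 936 in the LIP library with a median of 5595 UMIs and 883 in the control library with a median of 10845 UMIs. Clusters were named from marker lists, with the 37 genes held out of the clustering. 839 LIP and 800 control cells received a name, and the others stayed in 3 unnamed clusters. 1 kept barcode sequence occurred in both libraries. The neutrophil-like class had 321 LIP and 52 control cells, the macrophage-like class 82 and 43, the T-like class 27 and 51, and the epithelial-like class 76 and 204. Together the 37 genes had 66010 UMIs in LIP and 67248 in control. Gapdh had the most in both (13403 and 13390 UMIs), followed by Pkm, Aldoa, Ldha and Mif in varying order, and Adm had the fewest in LIP (39 UMIs) and Aldoc in control (43 UMIs).

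The summed level differed several-fold between classes. In the LIP library the 37 genes made up 0.958% of the UMIs of macrophage-like cells (0.943 to 0.974), 0.838% in T-like cells, 0.678% in neutrophil-like cells (0.665 to 0.691), 0.674% in Schwann-like cells and 0.670% in epithelial-like cells. The last 3 could not be separated within their counting intervals, and the epithelial-like value leaves out an unnamed cluster described below. Mural-like (0.484%), vascular endothelial-like (0.482%), bone-lineage-like (0.305%) and fibroblast-like cells (0.274%) were lower. In the control library neutrophil-like cells came first at 0.700% (0.676 to 0.724), before epithelial-like cells at 0.627%, and macrophage-like cells were at 0.412%. By pooled UMIs the macrophage-like class thus stood first of the named classes with 20 cells or more in the LIP library but not in the control library. The medians over LIP cells ran in another order. They were 0.728% in Schwann-like, 0.647% in macrophage-like, 0.629% in epithelial-like, 0.616% in neutrophil-like and 0.538% in T-like cells.

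**Figure D1:**
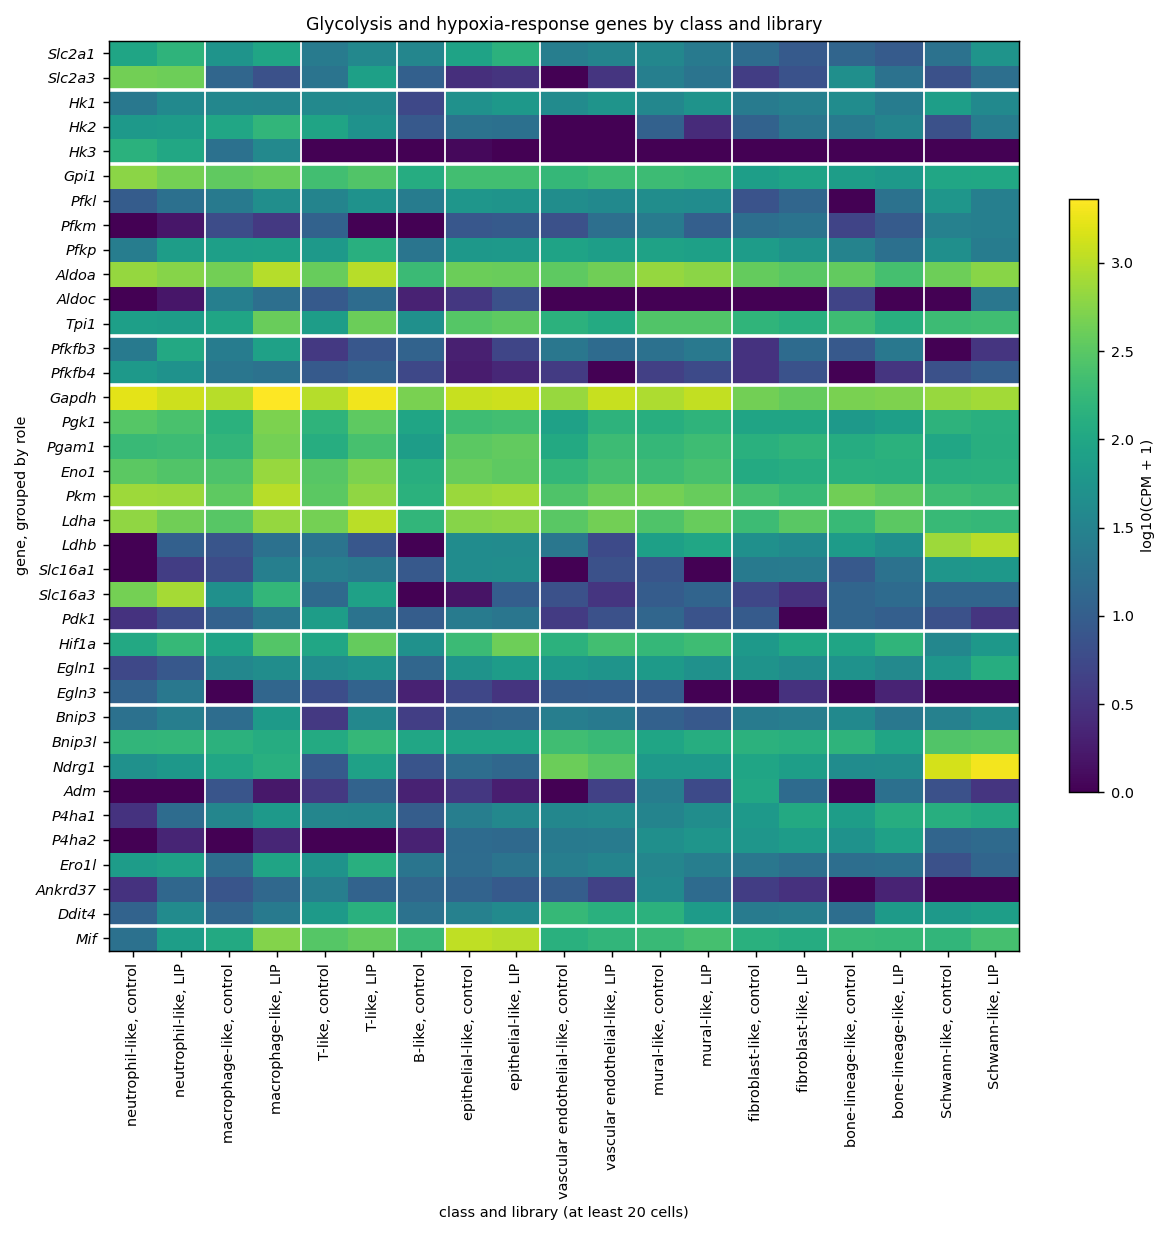
Level of each of the 37 genes (rows, grouped by role) in each class and library with at least 20 cells (columns), as log10 of UMIs per 1000000 UMIs of the class (CPM) plus 1. The Schwann-like columns stand out for Ldhb and Ndrg1, the neutrophil-like columns for Slc2a3 and Slc16a3, and in the macrophage-like class most glycolytic rows are brighter for LIP than for control.

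Of 181 pairs of a gene and a named class with at least 50 UMIs over both libraries, in 9 classes with at least 20 cells per library, 30 were at least 2-fold higher in LIP and 2 at least 2-fold lower. Over all genes tested, from 1.38% (epithelial-like) to 12.3% (neutrophil-like) of a class were 2-fold higher. From 1.59% (epithelial-like) to 8.03% (bone-lineage-like) were 2-fold lower. 23 of the 30 lay in the macrophage-like and T-like classes, where 8.18% and 8.46% of all genes tested were higher. Aldoc and Egln3 did not reach 50 UMIs in any class, and 19 of the other 35 genes differed 2-fold in at least 1 class. The share of all genes that differed in at least 1 of the 9 classes was not counted, so this count has no background. The 16 genes that never did were Slc2a1, Slc2a3, Hk1, Hk2, Gpi1, Pfkl, Pfkm, Pfkfb4, Ldhb, Slc16a1, Pdk1, Bnip3l, Ndrg1, P4ha1, P4ha2 and Ankrd37. Some of these were measurable in 1 class alone. In epithelial-like cells the lactate transporter Slc16a1 was at 44.1 CPM in LIP with a log2 ratio of 0.07, the pyruvate dehydrogenase kinase Pdk1 was at 19.8 CPM in LIP and 24.4 in control, and in neutrophil-like cells the phosphofructokinase regulator Pfkfb4 was at 51.3 and 62.2 CPM. Pfkm and Ankrd37 were near 10 CPM or below in epithelial-like cells, with intervals of the ratio that include 0.

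In macrophage-like cells the summed level was 2.32-fold higher in LIP than in control (log2 1.22, 1.15 to 1.28). The class differed in makeup between the libraries, since 67.4% of its control cells and 36.6% of its LIP cells lay in a sub-cluster led by Mfge8, Epcam and MHC class II genes. In that sub-cluster Cd209a, a dendritic cell marker, was at 523 CPM in control and 234 in LIP, the macrophage marker C1qa was found in 27.6% and 36.7% of cells and Csf1r in 62.1% and 70.0%. The ratios over the class therefore compare different mixtures of cells. 15 of the 25 genes with enough UMIs were at least 2-fold higher and none was 2-fold lower, where 8.18% of all 4953 genes tested in the class were 2-fold higher and 3.55% lower. The median log2 ratio was 1.14 over the 25 genes and 0.069 over all genes. The change ran through the whole lower pathway. Gapdh, which makes the first high-energy phosphate of the pathway, was at 2301 CPM in LIP and 1008 in control. Pkm, the pyruvate kinase that makes pyruvate, was at 1012 and 338 CPM, and Pgk1, the phosphoglycerate kinase, at 493 and 138. The triose isomerase Tpi1 stood at 395 against 92.4 CPM, the mutase Pgam1 at 461 against 161, the enolase Eno1 at 698 against 267 and the aldolase Aldoa at 969 against 438. All 7 were called higher, with log2 ratios from 1.14 (Aldoa, 0.95 to 1.34) to 2.09 (Tpi1, 1.70 to 2.52).

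The largest ratios in this class belonged to genes outside the core enzymes. Ero1l, an oxidase that forms disulfide bonds in the endoplasmic reticulum, was at 91.4 CPM (76.9 to 107.9) in LIP and 15.1 CPM (6.9 to 28.7) in control, a log2 ratio of 2.60 (1.63 to 3.76). Mif was at 541 and 109 CPM (log2 2.31) and Bnip3, a mitophagy receptor, at 66.4 and 15.1 CPM (log2 2.14). Hif1a itself was at 287 and 87.3 CPM (log2 1.72, 1.30 to 2.16). Higher too were the lactate exporter Slc16a3 at 166 and 47.0 CPM (log2 1.82), Ldha at 673 and 307 CPM (log2 1.13) and Pfkfb3, which makes the activator of phosphofructokinase, at 83.5 and 25.2 CPM (log2 1.73). The entry steps differed less. Hk3 passed at 36.8 and 16.8 CPM on 66 UMIs, while Hk2 (160 and 97.4 CPM), the glucose transporter Slc2a1 (93.4 and 53.7 CPM) and Gpi1 (381 and 351 CPM) stayed under 2-fold. Bnip3l, a close relative of Bnip3, was at 119 and 143 CPM (log2 -0.26, -0.64 to 0.13). Within the sub-cluster led by Mfge8 and Epcam the directions were mixed. Slc16a3 (24.2 CPM in LIP and 31.8 in control), Bnip3 (16.1 and 19.6) and Slc2a1 (30.6 and 63.6) were lower in LIP. Mif (396 and 127), Ero1l (21.0 and 14.7), Hif1a (106 and 70.9), Ldha (492 and 367) and Pfkfb3 (35.5 and 31.8) were higher. The intervals of these genes overlapped except for Mif and Ldha.

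**Figure D2:**
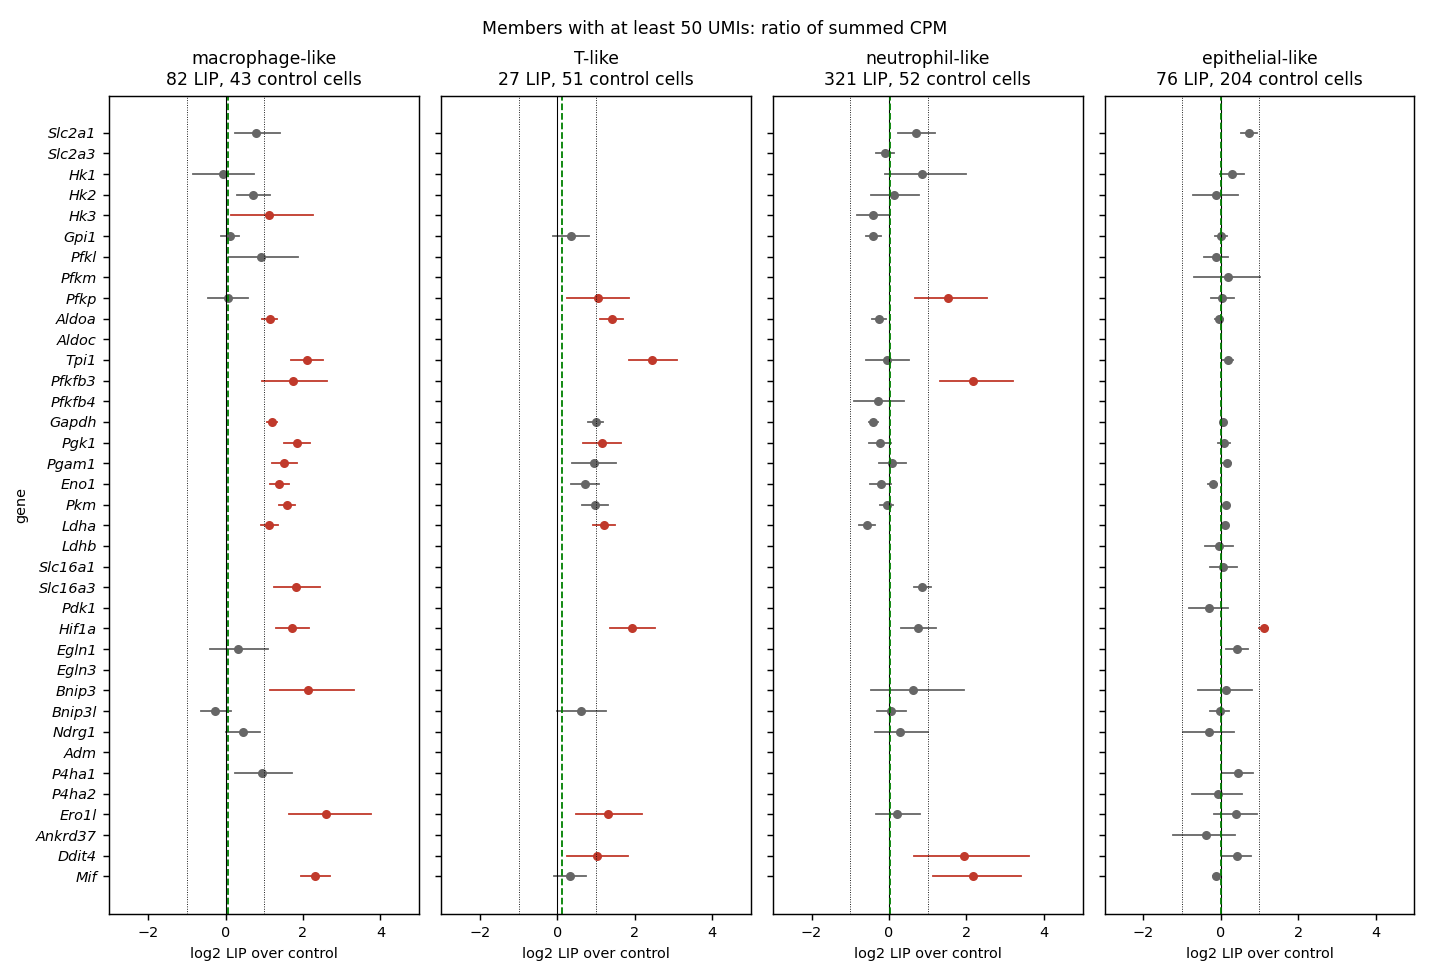
Log2 ratio of LIP over control summed CPM for each gene with at least 50 UMIs over both libraries, in 4 classes, with exact 95% counting intervals as bars. Red points are at least 2-fold higher, dotted lines mark 2-fold and the green dashed line is the median of all genes tested. 15 genes are red in macrophage-like cells, 8 in T-like, 4 in neutrophil-like and 1 in epithelial-like cells.

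HIF binds a short core, ACGTG or GCGTG, and its binding was not measured here. The 250 bases before each RefSeq transcription start (GRCm38.p6) were searched for both on both strands, in 47 windows of the 34 genes that matched the table. CACGTG reads the same on both strands and counts as 2 matches. At least 1 match lay in 39 of the 47 windows (83.0%), against 38.6% of all 32851 windows, and at least 3 lay in 25.5% against 6.58%. The genes were listed for their part in glycolysis and the hypoxia response, so their windows are not a random draw from all windows. The shares are also not matched for base composition, although both cores contain CG. GC content ran from 36.4% to 86.0% over the 47 windows, and some windows of the same gene overlap. The part of GC content in the difference was not tested. Gpi1, Tpi1 and Mif had no match in these windows. Among the genes tested in macrophage-like cells, 13 of the 15 called higher with a window and 7 of the 8 others with a window held a match. The part of HIF in these levels was not tested. The 5 genes with a window and the highest macrophage ratios are shown with Ldha and Ldhb, the subunit pair that differs most between classes. The windows are chr14:45318573-45318822 on the minus strand (listed as Ero1a), chr10:75860278-75860527 on the minus strand, chr7:138909507-138909756 on the minus strand, chr6:124814159-124814408 on the minus strand, chrX:106186850-106187099 on the plus strand, chr7:46845554-46845803 on the plus strand and chr6:142507958-142508207 on the minus strand. Each is written 5′ to 3′ on the strand of its gene and ends at the base before the start, with matches in capitals.
Ero1l: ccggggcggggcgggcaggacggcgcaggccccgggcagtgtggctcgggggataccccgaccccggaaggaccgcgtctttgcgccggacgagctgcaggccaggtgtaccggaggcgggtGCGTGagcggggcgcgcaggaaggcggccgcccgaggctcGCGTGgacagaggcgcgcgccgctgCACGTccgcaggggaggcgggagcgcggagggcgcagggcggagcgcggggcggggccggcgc
Mif: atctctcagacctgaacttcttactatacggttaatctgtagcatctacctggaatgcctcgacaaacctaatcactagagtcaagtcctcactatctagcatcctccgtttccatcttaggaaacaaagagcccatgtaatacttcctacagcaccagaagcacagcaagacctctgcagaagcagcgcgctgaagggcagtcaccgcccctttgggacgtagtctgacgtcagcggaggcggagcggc
Bnip3: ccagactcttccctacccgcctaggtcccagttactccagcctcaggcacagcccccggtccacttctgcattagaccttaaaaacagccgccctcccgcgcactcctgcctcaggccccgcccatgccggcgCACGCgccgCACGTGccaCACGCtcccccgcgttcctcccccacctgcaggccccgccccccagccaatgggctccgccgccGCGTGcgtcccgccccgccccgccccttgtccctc
Tpi1: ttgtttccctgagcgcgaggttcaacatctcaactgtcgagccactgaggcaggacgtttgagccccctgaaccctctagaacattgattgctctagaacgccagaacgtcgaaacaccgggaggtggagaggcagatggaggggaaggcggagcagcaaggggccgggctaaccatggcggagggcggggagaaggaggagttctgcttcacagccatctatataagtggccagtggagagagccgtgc
Pgk1: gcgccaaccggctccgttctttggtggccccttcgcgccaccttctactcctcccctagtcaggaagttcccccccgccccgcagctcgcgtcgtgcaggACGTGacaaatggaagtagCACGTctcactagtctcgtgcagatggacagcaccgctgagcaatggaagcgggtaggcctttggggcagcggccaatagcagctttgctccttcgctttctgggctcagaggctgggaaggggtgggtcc
Ldha: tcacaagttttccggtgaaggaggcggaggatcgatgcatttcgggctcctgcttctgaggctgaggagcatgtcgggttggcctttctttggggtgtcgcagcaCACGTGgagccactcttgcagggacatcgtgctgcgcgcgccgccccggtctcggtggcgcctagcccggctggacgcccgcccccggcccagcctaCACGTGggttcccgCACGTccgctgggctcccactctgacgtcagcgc
Ldhb: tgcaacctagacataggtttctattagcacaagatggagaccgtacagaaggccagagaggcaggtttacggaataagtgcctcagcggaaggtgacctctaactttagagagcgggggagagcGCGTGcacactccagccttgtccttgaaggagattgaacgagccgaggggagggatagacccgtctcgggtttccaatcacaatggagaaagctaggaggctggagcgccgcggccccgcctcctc
In the windows shown Ldha held 5 matches, with 2 copies of CACGTG, Bnip3 held 5 and Ldhb held 1. For a gene with several windows, that with the most matches is shown. A second Ldha window, at a later start and not shown, held 1 match, as the Ldhb window did, and no CACGTG. Ero1l held 3 and Pgk1 2. Mif and Tpi1 held no match, and whether HIF binds any of these windows was not tested.

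The macrophage-like class was not uniform. 28 of its 82 LIP cells (34.1%, 24.0 to 45.4) drew more than 1% of their UMIs from the 37 genes. 0 of the 43 control cells did, with an upper limit of 8.22%. Such cells were not particular to this class. In Schwann-like cells 20 of 103 LIP and 0 of 37 control cells were over 1%, and in neutrophil-like cells 35 of 321 and 3 of 52. The largest shares were in an unnamed cluster led by Sprr2d and Odam, with 21 of 36 LIP and 8 of 22 control cells. In 1 Schwann-like sub-cluster the 24 LIP cells had a median of 899 UMIs, so few UMIs bring such a cell over 1%. Macrophage-like LIP cells ran from 0.0722% to 2.50% with a median of 0.647%, and control cells from 0.130% to 0.761% with a median of 0.394%. A finer clustering of the class, added after these values were seen and again without the 37 genes, gave 3 sub-clusters. The first was led by Mfge8, Epcam and MHC class II genes with Cd209a, the second by Chil3 and Ly6c2, which mark recruited monocytes, and the third by Saa3, Cxcl3, Arg1, Spp1, Inhba and Nos2, genes of activated inflammatory macrophages.

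27 of the 28 cells over 1% lay in the sub-cluster led by Saa3 and Arg1. It held 33 LIP cells (40.2% of the class) and 4 control cells (9.30%), and those 4 had no UMI of Arg1, Spp1 or Saa3. Its LIP cells had 1.53% of their UMIs from the 37 genes (1.50 to 1.56), and the 4 control cells 0.233%. The sub-cluster led by Mfge8 and Epcam was at 0.580% in 30 LIP and 0.427% in 29 control cells, a log2 ratio of 0.44 (0.36 to 0.52). There 2 of 15 genes, Tpi1 and Mif, were 2-fold higher and none lower, where 6.6% of all 2805 genes tested were higher and 2.35% lower. The sub-cluster led by Chil3 and Ly6c2 was at 0.584% in 19 LIP and 0.456% in 10 control cells, too few for a comparison. Over all LIP macrophage-like cells outside the Saa3 and Arg1 sub-cluster the level was 0.581%.

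**Figure D3:**
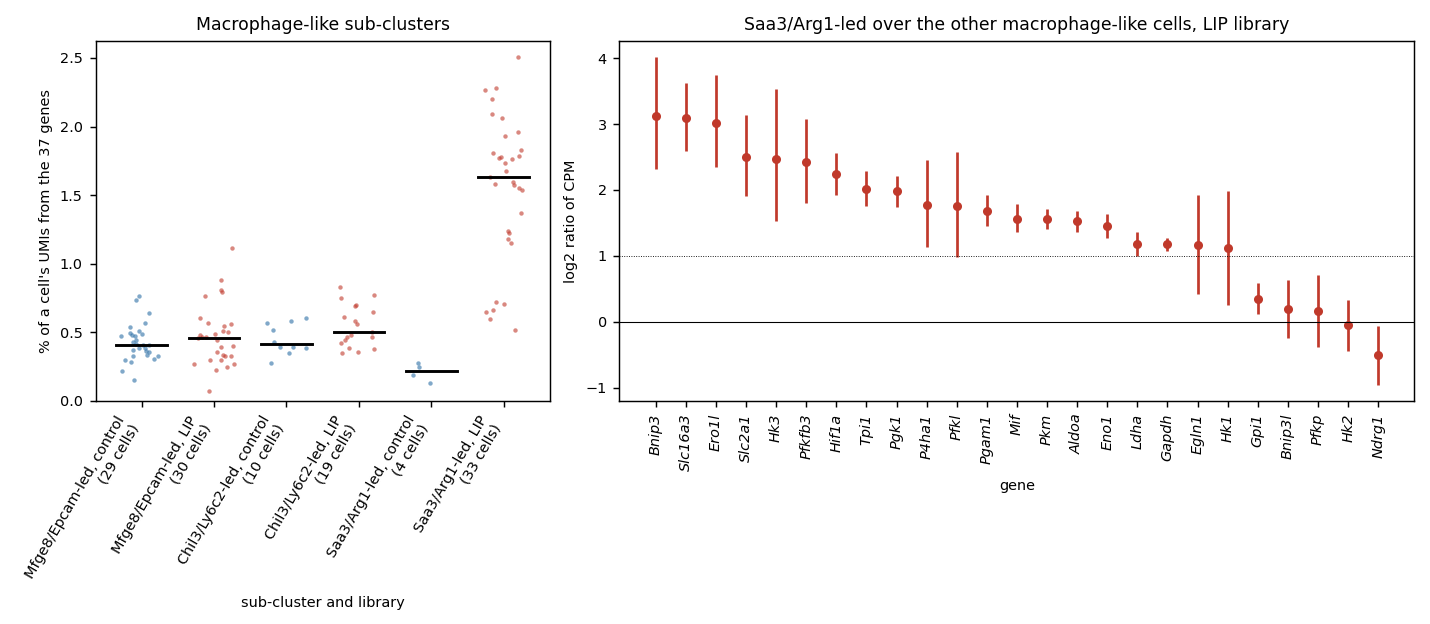
Left, percentage of each cell's UMIs from the 37 genes in the 3 macrophage-like sub-clusters by library, with medians as bars (red LIP, blue control). Right, log2 ratio of CPM in the Saa3/Arg1-led sub-cluster over the other macrophage-like cells of the LIP library for the 25 genes with at least 50 UMIs, with exact 95% counting intervals. 20 genes lie above 2-fold and the Saa3/Arg1-led LIP cells have quartiles of 1.22% and 1.83%.

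Within the LIP library the Saa3 and Arg1 sub-cluster was set against the other 49 macrophage-like cells. 20 of 25 genes were at least 2-fold higher and none 2-fold lower, beside 10.3% and 14.2% of all genes, and the median log2 ratio was 1.57 against -0.14. The finer clustering was added after the per-cell shares were seen, and this sub-cluster held nearly all cells over the limit. These counts are therefore not independent of its high sum, and describe which genes made it up. Bnip3 was at 142 and 16.4 CPM (log2 3.12), Slc16a3 at 354 and 41.5 CPM (log2 3.09) and Ero1l at 193 and 24.0 CPM (log2 3.01). Slc2a1 was at 185 and 32.8 CPM (log2 2.50) and Hif1a at 545 and 116 CPM (log2 2.24). The upper steps of glycolysis were mixed. Hk2 (157 and 163 CPM) and Pfkp (86.0 and 76.5 CPM) did not differ beyond counting error. Hk3 (72.7 and 13.1 CPM), Pfkl (77.7 and 22.9 CPM) and Hk1 (49.6 and 22.9 CPM) were at least 2-fold higher. Ndrg1 was lower by less than 2-fold (106 and 150 CPM). Vegfa, the endothelial growth factor induced by HIF, was at 212 and 40.4 CPM, and Hmox1, the haem oxygenase, at 1291 and 42.6 CPM.

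T-like cells showed the second rise. The summed level was 0.838% in 27 LIP cells and 0.419% in 51 control cells (log2 1.0, 0.91 to 1.09). The medians over cells lay closer together, at 0.538% and 0.382%, and 6 of 27 LIP cells were over 1%, up to 2.41%. 8 of 15 genes were at least 2-fold higher, where 8.46% of all 1784 genes tested were and 5.27% were lower. The median over all genes was itself at log2 0.13 in this class and that over the 15 genes at 1.03. Tpi1 was at 404 and 74.0 CPM (log2 2.45), Hif1a at 372 and 97.8 CPM (log2 1.93), Aldoa at 1005 and 381 CPM (log2 1.40) and Ldha at 1042 and 452 CPM (log2 1.20). Ero1l, Pgk1, Pfkp and Ddit4, an inhibitor of the growth kinase mTORC1, had log2 ratios from 1.03 to 1.31. Mif, in contrast to macrophage-like cells, was at 372 and 296 CPM with an interval that includes 0.

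By pooled UMIs, and on few cells, the T-like sum was higher in LIP in 1 of its 2 sub-clusters. The first was led by Il17a and Trdc, the cytokine IL-17A and a γδ receptor chain. Trbc1, of the αβ receptor, Ctla4 and Icos were also among its leading genes, so it is not read as γδ cells alone. Its summed level was 1.08% (1.03 to 1.13) in 16 LIP cells and 0.493% (0.456 to 0.531) in 21 control cells. In the sub-cluster led by Xcl1 and Nkg7, genes of cytotoxic cells, it was 0.387% in 11 LIP cells and 0.377% in 30 control cells, with overlapping intervals. The medians over cells were 0.737% in LIP and 0.447% in control in the first, and 0.356% and 0.350% in the second. Aldoa was at 1426 and 439 CPM in the first and at 219 and 347 CPM in the second. These sub-clusters had under 20 LIP cells, so no gene was called in them. Depth differed in the first, with a median of 9791 UMIs in LIP and 4457 in control, and its part in the values was not tested.

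Free RNA and depth were measured beside these values. The neutrophil marker S100a8 stood in LIP macrophage-like cells at 0.240% and in LIP T-like cells at 0.500% of its neutrophil-like level, and in control at 0.0304% and 0.0318%. All 15 neutrophil markers were found in LIP macrophage-like cells (975 CPM in sum, against 615 in control), and 10 of 15 in LIP T-like cells (1610 against 222). The part of carried-over RNA in the values of the 37 genes was not tested. Median UMIs were 16190 in LIP and 13665 in control macrophage-like cells, and 8437 and 6472 in T-like cells. After each cell was thinned to 1000 UMIs the log2 ratios of the sums were 1.31 and 0.96. Over all settings tried they ran from 1.15 to 1.47 and from 0.84 to 1.27. Thinning gives the cells equal weight, and the part of depth in the ratios was not tested.

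**Figure D4:**
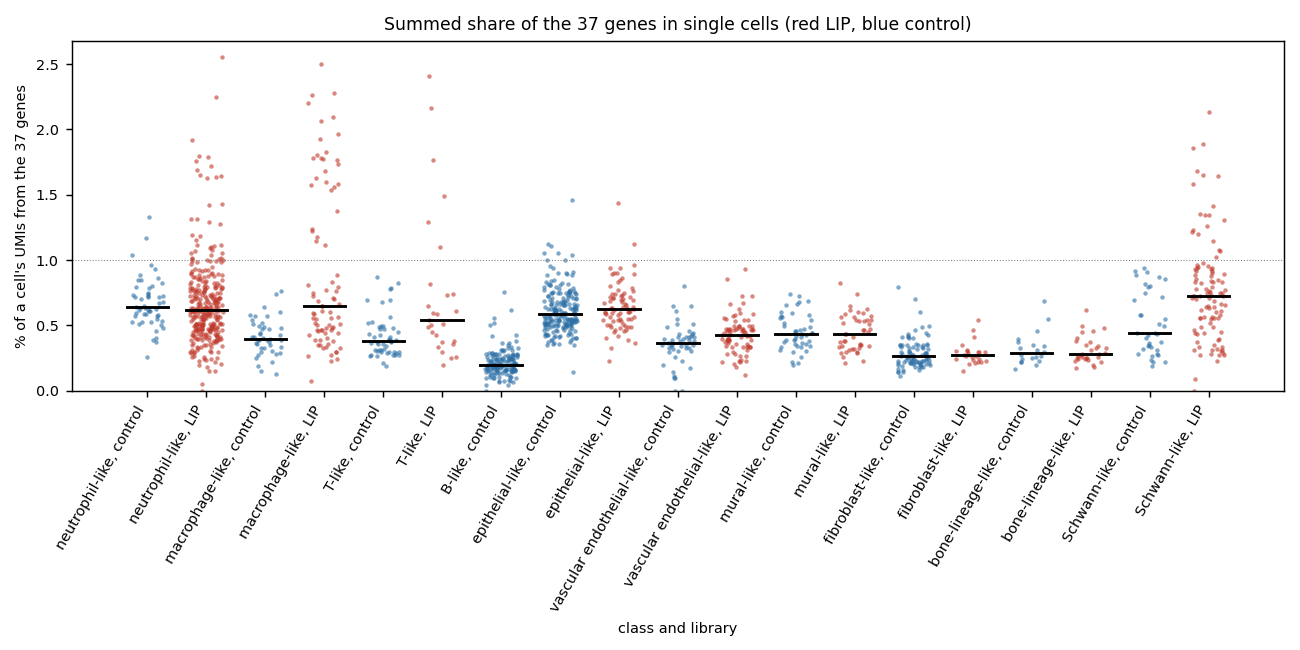
Percentage of each cell's UMIs from the 37 genes, by class and library, with medians as bars and a dotted line at 1%. Above the line lie 28 macrophage-like, 6 T-like and 20 Schwann-like LIP cells and no control cell of these classes. Also above it are 35 neutrophil-like LIP and 3 control cells, and 2 epithelial-like LIP and 8 control cells. The fibroblast-like and bone-lineage-like cells of both libraries stay below it. The unnamed clusters are not drawn.

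Neutrophil-like cells had a high summed level in both libraries, at 0.678% in LIP and 0.700% in control (log2 -0.05, -0.10 to 0.01). Against all other kept LIP cells their sum was at log2 0.14 (0.11 to 0.17), a value that depended on scaling, at 1.78 with median-of-ratios scaling and 0.045 with cells thinned to 1000 UMIs. Their isoforms differed from those of the other classes. Slc2a3, the high-affinity glucose transporter GLUT3, was at 417 CPM (386.2 to 449.8) in LIP and 446 CPM (387.7 to 511.2) in control, 5.20 and 9.65 times the level of the next group with 20 cells. Slc16a3 was at 821 and 453 CPM, 4.95 and 9.63 times the level in macrophage-like cells, and made up 99.6% and 100% of the UMIs of both lactate transporters. Hk3, a hexokinase of myeloid cells, was at 104 and 137 CPM and held 49.3% (43.8 to 54.7) and 62.1% (52.0 to 71.5) of the hexokinase UMIs. Outside the neutrophil-like and macrophage-like classes, Hk3 had 0 UMIs in every other named class compared except for 1 UMI in control epithelial-like cells. In T-like cells a count of 0 allows up to 10.9 CPM in LIP and 7.93 in control. Gpi1, the isomerase after hexokinase, was also high at 454 and 601 CPM, while Tpi1 was at 74.1 and 77.2 CPM.

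4 of 25 genes were at least 2-fold higher in LIP neutrophil-like cells and none 2-fold lower, where 12.3% of all 3193 genes tested were higher and 3.01% lower. The share was thus close to that of all genes. They were Pfkfb3 (107 and 23.6 CPM, log2 2.18), Mif (76.6 and 17.2 CPM, log2 2.16), Ddit4 (41.4 and 10.7 CPM, log2 1.95) and Pfkp (74.1 and 25.7 CPM, log2 1.53), each on 5 to 12 control UMIs. Gapdh (1256 and 1663 CPM, log2 -0.40) and Ldha (425 and 633 CPM, log2 -0.57, -0.77 to -0.37) were lower by less than 2-fold.

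The sub-clusters of this class divided the same genes. The sub-cluster led by Ltf, Ngp and Camp, granule genes of immature neutrophils, had 48 LIP and 23 control cells, and that led by Acod1, Ccl3 and Csf3r had 273 and 29. Gpi1 was at 823 CPM in the first and 216 CPM in the second in the LIP library, and Hk3 at 161 and 67.0 CPM. The order was the opposite for Slc16a3 (323 and 1142 CPM), Slc2a1 (28.4 and 232 CPM) and Hif1a (66.3 and 254 CPM). None of 17 genes in the granule-gene sub-cluster was 2-fold different, beside 2.28% of all genes higher and 0.683% lower. In the other, 5 of 23 were higher, beside 11.2% of all genes higher and 7.87% lower, with Pfkfb3 at 165 and 24.1 CPM and Mif at 124 and 40.2 CPM. Hif1a, at log2 0.75 over the class, was at 66.3 and 61.4 CPM in the granule-gene sub-cluster and 254 and 233 in the other, log2 ratios of 0.11 and 0.12, and the latter made up more of the LIP cells. The sums of the sub-clusters differed from control by log2 -0.06 (-0.13 to 0.01) and 0.08 (-0.03 to 0.19).

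**Figure D5:**
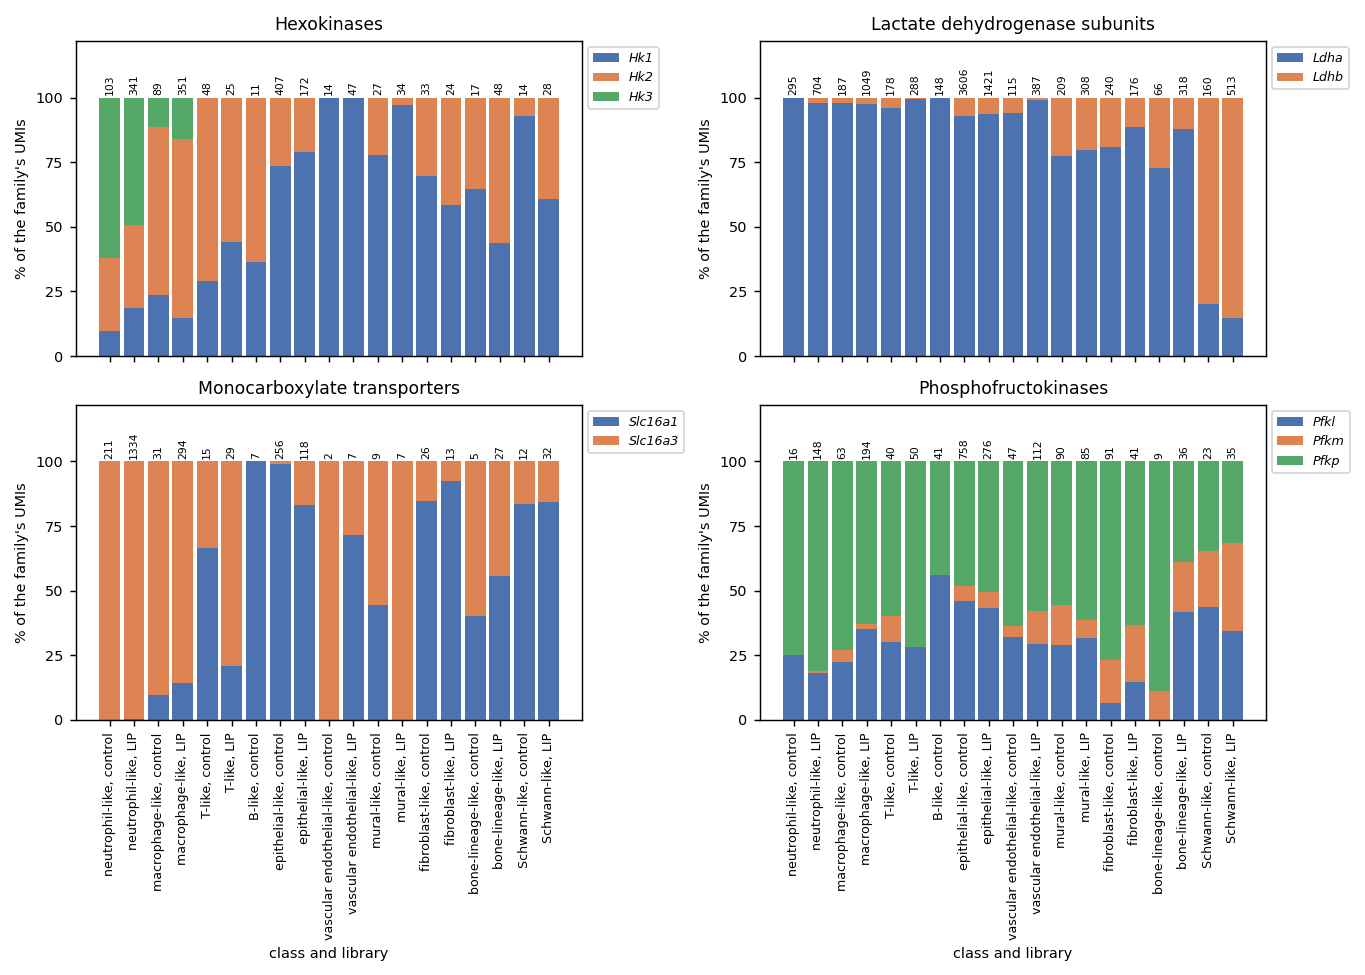
Share of each isoform in the summed UMIs of its family by class and library, for hexokinases, lactate dehydrogenase subunits, monocarboxylate transporters and phosphofructokinases. The number above each bar is the family's UMI count, and bars with few UMIs are imprecise. Of the named classes, Ldhb holds most of the lactate dehydrogenase UMIs in the Schwann-like class, at 85.4% in LIP and 80.0% in control, and Hk3 appears in the neutrophil-like and macrophage-like classes.

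Schwann-like cells, the glia that wrap peripheral nerve fibres, had high levels of Ndrg1 and Ldhb. Ndrg1, a hypoxia-induced gene that is also needed for peripheral myelin, was at 2026 CPM (1896 to 2164) in 103 LIP cells and 1385 CPM (1215 to 1571) in 37 control cells, above Gapdh at 783 and 689 CPM. The next class with 20 cells, vascular endothelial-like cells, was at 309 and 400 CPM. Ldhb, the heart-type lactate dehydrogenase subunit that favours lactate use, was at 994 and 735 CPM, and Ldha at 170 and 184 CPM. Ldhb held 85.4% (82.0 to 88.3) and 80.0% (73.0 to 85.9) of the lactate dehydrogenase UMIs, and at most 27.3% in any other named class compared. An unnamed cluster of 50 LIP cells with a median of 791 UMIs and 23 control cells with a median of 5002 UMIs also held it, with Ldhb at 831 CPM in control and 28.7 in LIP. In that cluster the summed neutrophil markers were at 69765 CPM in LIP and 262 in control, and 2 of 9 genes were 2-fold higher and 4 lower, beside 23.7% of all genes higher and 30.7% lower. In the sub-cluster led by Pmp22 and Mbp, genes of myelin, Ndrg1 reached 2859 and 2380 CPM and Ldhb 1468 and 1318, and in that led by Scn7a and Gfra3, of non-myelinating cells, Ndrg1 was at 541 and 499 CPM and Ldhb at 291 and 217. The summed level was 0.674% in LIP and 0.539% in control (log2 0.32, 0.22 to 0.43). 51 of 103 LIP and 17 of 37 control cells were in the Pmp22 and Mbp sub-cluster, at 0.845% and 0.747%. A further 24 LIP cells formed a sub-cluster that no control cell joined, with a median of 899 UMIs. It was led by Mbp and Prx, also genes of myelin, and was at 0.863%. The Scn7a and Gfra3 sub-cluster was at 0.403% in LIP and 0.354% in control, with overlapping intervals. The ratios over this class therefore compare different mixtures of cells. Egln1, the main prolyl hydroxylase, was the only 1 of 15 genes called higher (123 and 57.5 CPM, log2 1.09, 0.10 to 2.23), beside 3.74% of all genes higher and 3.7% lower.

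In epithelial-like cells Mif was the leading gene after Gapdh, at 1000 CPM in LIP and 1094 in control. Hif1a was the only 1 of 29 genes called, at 416 and 193 CPM (log2 1.10, 0.98 to 1.23), where 1.38% of all 9198 genes tested were 2-fold higher and 1.59% lower. It was higher in each of the 3 epithelial-like sub-clusters, at 346 and 164 CPM in that led by Krt13 and Krt4, at 448 and 210 in that led by Col17a1 and Trp63 and at 471 and 240 in that led by the mitotic genes Cenpf and Cdc20. Slc2a1 was at 145 and 87.2 CPM (log2 0.73, 0.53 to 0.93), and the sum differed by log2 0.10 (0.07 to 0.12). An unnamed cluster of 36 LIP and 22 control cells with few UMIs, led by Sprr2d, Odam, Krt6b, Krt16 and Krt17, had a higher sum than any named class, 1.29% in LIP and 1.0% in control. There 2 of 14 genes were called higher, Hif1a (627 and 183 CPM) and Slc2a1 (157 and 61.2 CPM), beside 13.6% of all genes higher and 6.05% lower. Its summed neutrophil markers were at 10788 CPM in LIP and 251 in control, and their part in these values was not tested. The cluster had 6 markers of a single class but 0 among its 10 leading genes, so it stayed unnamed. It was split from the same cluster as the 3 epithelial-like sub-clusters, and the epithelial-like sum leaves it out. A sum with it included was not calculated.

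Hif1a was above control in all 8 named classes of these 2 libraries in which it had enough UMIs, with the interval above 0 in 7. The log2 ratio was 0.77 in bone-lineage-like, 0.75 in neutrophil-like, 0.64 in vascular endothelial-like and 0.62 in fibroblast-like cells, and 0.25 (-0.14 to 0.63) in mural-like cells. Within the neutrophil-like sub-clusters it was only 0.11 and 0.12. In the macrophage-like sub-cluster led by Mfge8 and Epcam, Hif1a was at 106 CPM (82.3 to 135) in 30 LIP cells and 70.9 CPM (47.5 to 102) in 29 control cells. In that led by Chil3 and Ly6c2, it was at 136 CPM (96.9 to 185) in 19 LIP cells and 172 CPM (106 to 262) in 10 control cells. The intervals overlapped in both. In that led by Saa3 and Arg1, Hif1a was at 545 CPM in 33 LIP cells and 31.1 CPM (3.77 to 112) in only 4 control cells. This is a level of mRNA, and the abundance of the HIF-1α protein was not measured.

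The other stromal classes had low sums and few calls. In vascular endothelial-like cells 0 of 17 genes reached 2-fold, beside 5.32% of all genes higher and 3.11% lower, and the sum differed by log2 0.34 (0.25 to 0.43), with Pgam1 at 204 and 110 CPM and Gapdh at 1199 and 695 CPM. Bone-lineage-like cells had equal sums in both libraries (0.305%) and 1 of 16 genes called higher, Ddit4 at 67.8 and 15.4 CPM (log2 2.14, 0.70 to 4.06), beside 5.9% of all genes higher and 8.03% lower. In fibroblast-like cells 1 of 19 genes was called lower, beside 4.62% of all genes lower and 2.92% higher. This was Adm, the vasodilator peptide adrenomedullin, at 14.0 CPM in 24 LIP and 102 CPM in 88 control cells (log2 -2.86, -4.22 to -1.77). In mural-like cells 1 of 20 was called lower, Ddit4 at 68.8 and 146 CPM, beside 3.39% of all genes lower and 3.87% higher. P4ha1 and P4ha2 encode subunits of the enzyme that hydroxylates collagen. P4ha1 was at 125 and 73.3 CPM and P4ha2 at 84.2 and 50.1 CPM in bone-lineage-like cells, and at 110 and 64.0 and at 72.2 and 57.8 CPM in fibroblast-like cells. In the 9 LIP and 12 control erythroid-like cells Bnip3l, which clears mitochondria from maturing red cells, was at 693 and 613 CPM.

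2 further lists, of 36 other glucose-metabolism genes and 35 other hypoxia-pathway genes, were read in the same way. In macrophage-like cells 6 of 12 hypoxia-pathway genes with enough UMIs were 2-fold higher and none lower, with Vegfa at 109 and 18.5 CPM (log2 2.55, 1.68 to 3.58), Hmox1 at 539 and 85.7 CPM, the placental growth factor Pgf at 35.5 and 3.36 CPM and Mxi1 at 55.9 and 10.1 CPM. Among the other glucose-metabolism genes, which hold the pentose phosphate pathway and the pyruvate carriers, 0 of 9 differed 2-fold there, and the median log2 ratio was 0.06. In the sub-cluster led by Mfge8 and Epcam, Vegfa (49.96 CPM in LIP and 14.7 in control) and Pgf (51.6 and 4.89) were higher. Pgf there had 2 control UMIs and was found in 16.7% of LIP cells. The intervals of Hmox1 (30.6 and 24.5) and Mxi1 (25.8 and 9.78) overlapped. In that led by Chil3 and Ly6c2, Hmox1 (67.8 and 131) and Vegfa (20.3 and 40.9) were lower in LIP, with overlapping intervals. Mxi1 (17.0 and 8.17) was higher, also with overlap. In T-like cells 2 of 6 and 2 of 3 were higher, among them Bsg, the chaperone of the lactate transporters, at 433 and 148 CPM, and Bhlhe40 at 499 and 193 CPM. In neutrophil-like cells 0 of 11 and 3 of 7 were higher, with Hmox1 at 153 and 40.8 CPM. The counts within the neutrophil-like sub-clusters were lower, with 1 higher and 1 lower of 6 hypoxia-pathway genes in that led by Acod1 and Ccl3, which made up more of the LIP cells, and 0 of 2 in that led by granule genes. In epithelial-like cells 0 of 25 hypoxia-pathway genes were called, with a median of 0.05, and in fibroblast-like cells 2 were higher and 3 lower of 16, with a median of -0.09. The shares of all genes called in each class are those given above. Bsg was at 280 and 205 CPM in macrophage-like cells and at 78.5 and 51.5 CPM in neutrophil-like cells. Epas1, which encodes HIF-2α, was highest, among the classes compared, in vascular endothelial-like (740 and 840 CPM) and mural-like cells (700 and 567 CPM), with 4 LIP UMIs in macrophage-like cells.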

How the data were processed

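Both libraries were made by the authors with the 10x Genomics Single-cell 3′ v.3 kit and aligned to mm10 with Cell Ranger. The values are the raw UMI counts per gene and barcode as deposited by the authors, without normalization. Such counts are of transcripts and do not scale with gene length. The LIP library held 1212 barcodes and the control library 1169, with 10560109 and 13407122 UMIs in kept barcodes. Both files held barcodes outside the limits, which were removed. Counts were log-normalized and the libraries were integrated in Seurat 5.3.0 (R 4.3.3) on 1996 variable genes, after 4 of the 37 genes were taken from the 2000, with 30 dimensions, resolution 0.1 and sub-clusters at 0.2, or 0.8 for the added macrophage sub-clusters. A marker counted when found in 25% of a cluster's cells and over 2-fold above the others with 10 CPM added, and a name needed 3 markers. A cluster with few UMIs for its library also needed a marker among its 10 leading genes. The unnamed cluster led by Sprr2d and Odam had 6 markers of a single class but 0 among those 10. Scrublet (scanpy 1.11.5) called 1 doublet in LIP and 4 in control, and all stayed in. Levels are summed UMIs per 1000000 UMIs of a class (CPM) with exact Poisson intervals, ratios of sums carry exact conditional binomial intervals, shares carry Clopper-Pearson intervals, and a count of 0 was set to a floor of 3 counts. UMIs of a pooled library do not show the spread between mice. Aldoa is 2 rows of the tables, which were summed. Many glycolytic genes have near-identical pseudogenes, and how such reads were counted is not given in the sources used here. Full values were given to genes that differed 2-fold, the 10 with the most UMIs, the isoform families and the 3 per library most above the next group. The 37 genes, the other gene lists and the limits were chosen with earlier results of these data known. 13 other settings changed the filters, clustering, scaling and minimum counts.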

Additional observations from a re-analysis of the deposited data

Results flagged for a closer look

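Ddit4 moved in opposite directions in different classes, and the difference between classes was not tested. Its log2 ratio of LIP over control was 2.14 in bone-lineage-like, 1.95 in neutrophil-like and 1.03 in T-like cells and -1.08 in mural-like cells. The ratio in bone-lineage-like cells rests on 4 control UMIs and that in neutrophil-like cells on 5.

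Barcodes with at least 200 genes that were left out for over 10% mitochondrial UMIs also held the 37 genes, at 0.494% (0.476 to 0.513) of the UMIs of 179 LIP barcodes and 0.388% (0.373 to 0.403) of those of 109 control barcodes. Their cell types were not assigned.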

How the results depend on the processing

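No paired analysis was possible because each condition is 1 library. 1 library per condition also means that the spread between mice could not be measured, and classes of 20 to 50 cells give wide intervals for genes with few UMIs. All 32 pairs of a gene and a class called different kept their direction under every alternative that gave a value, and 24 stayed at least 2-fold throughout, among them 12 of the 15 in macrophage-like, 5 of the 8 in T-like and all 4 in neutrophil-like cells. The settings for the T-like sum and the sums without Gapdh were chosen after seeing the data. Where a value moved, the cause was not tested.

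For the macrophage-like sum (log2 1.22) the value was 1.47 with 15 dimensions, 1.31 and 1.37 with cells thinned to 1000 and 2000 UMIs and 1.15 with median-of-ratios scaling. With a minimum of 500 genes fewer than 20 control cells took the macrophage name and no value was had. The T-like sum (log2 1.0) was 1.27 with a minimum of 500 genes, 0.84 as the mean of per-cell CPM, 0.84 thinned to 2000 UMIs and 0.87 with median-of-ratios scaling, and the limit of 5% mitochondrial UMIs left under 20 LIP cells. The epithelial-like sum (log2 0.10) was 0.31 at a mitochondrial limit of 5%, 0.24 with a minimum of 500 genes, 0.20 with 15 dimensions, 0.24 with the 37 genes kept among the features, 0.22 without Scrublet calls and 0.041 and 0.043 thinned to 1000 and 2000 UMIs. The vascular endothelial-like sum (log2 0.34) was 0.22 and 0.18 thinned to 1000 and 2000 UMIs and 0.22 without Gapdh. The neutrophil-like LIP over control sum (log2 -0.05) was 0.050 without Gapdh. The sum of neutrophil-like over all other LIP cells (log2 0.14) was 0.069 at a mitochondrial limit of 5%, 0.075 as the mean of per-cell CPM, 0.045 thinned to 1000 UMIs, 0.090 without mitochondrial UMIs, 0.18 without Gapdh and 1.78 with median-of-ratios scaling.

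The count of pairs at least 2-fold higher (30) was 9 and 18 thinned to 1000 and 2000 UMIs, where fewer genes reach the minimum, and 57 with no minimum above 1 UMI. The count of pairs lower (2) was 1 at a mitochondrial limit of 5%, 4 with 15 dimensions, 0 and 0 thinned, 7 with a minimum of 20 UMIs and 30 with no minimum above 1 UMI. The Hk3 share (49.3%) was 43.3% and 37.1% thinned to 1000 and 2000 UMIs.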
